A study of Mus musculus with 12 samples.

Results

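The SOCS family was followed in RAW 264.7 cells, a transformed mouse macrophage line, through its 8 genes Socs1 to Socs7 and Cish. The members were taken by name, and all 8 were among the 35865 genes of the deposited tables, with 7 of them reaching the count minimum for a test. Each culture received, for 48 h, extracellular vesicles (EVs) from MS-1 endothelial cells of the mouse, at 3 µg protein per ml of medium. Every group, the control included, thus received MS-1 EVs that had been electroporated with a miRNA mimic (called pre-miRNA in the labels and a double-stranded RNA in the methods). Ctrl-EVs carried a control mimic (cel-miR-67 of the worm in the study's methods), and each of the other groups carried a mouse mimic and is named for it, as miR-142-5p-EVs, as miR-183-5p-EVs or as miR-222-3p-EVs. Polyadenylated RNA was sequenced from 3 libraries per group, 12 in all, which the sample titles number 1 to 3 within each group. All groups came from 1 cell line, and how much of each mimic reached the cells was not analysed here.

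SOCS proteins are feedback inhibitors of cytokine receptors. A cytokine brings its receptors together, the attached Janus kinases (JAKs) phosphorylate STAT transcription factors, and STATs switch on genes that include Cish, Socs1, Socs2 and Socs3, whose products then damp the same pathway. All 8 proteins carry an SH2 domain, which binds phosphotyrosine, and a SOCS box, which joins elongins B and C and a cullin to form a ubiquitin ligase, and Socs1 and Socs3 can also block the JAK active site. In macrophages Socs1 restrains interferon-γ, IL-4 and Toll-like receptor signalling and Socs3 restrains IL-6 signalling, while Socs4 to Socs7 are less dependent on cytokines and act more on receptor tyrosine kinases and adaptors. Socs1 is a reported target of miR-142-5p in macrophages, so a fall of its mRNA was the question asked of miR-142-5p-EVs.

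The mature miRNAs are shown because the seed (bases 2 to 8, in capitals) sets which messages can pair with each mimic. The sequences are from RefSeq (GRCm38.p6), where miR-142-5p is listed as mmu-miR-142a-5p.
miR-142-5p: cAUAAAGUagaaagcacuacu
miR-183-5p: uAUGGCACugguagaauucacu
miR-222-3p: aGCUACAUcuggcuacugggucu
The 3 seeds differ from each other. Their 7-nt complements (ACTTTAT for miR-142-5p, GTGCCAT for miR-183-5p, ATGTAGC for miR-222-3p) were sought on the transcript strand of the 3′ UTR of the most expressed coding transcript of each gene (GENCODE vM21, GRCm38). Of 12569 tested genes with a 3′ UTR, 14.0% held the miR-142-5p complement, 8.91% that of miR-183-5p and 9.40% that of miR-222-3p.

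The miR-142-5p complement occurred once each in Socs1, Socs4 and Socs7, the members that could pair with this mimic through 7 nt. These sites are printed with their flanks and with the complement in capitals, 5′ to 3′ on the transcript strand.
Socs1: taggtaataaACTTTATtatgaaagtt
Socs4: agagggaaccACTTTATtgctaatagc
Socs7: tagtttccctACTTTATtctccctttt
The capitals lie at chr16:10783837-10783843 (minus strand) in Socs1, at chr14:47294408-47294414 (plus strand) in Socs4 and at chr11:97398052-97398058 (plus strand) in Socs7. In Socs1 this was base 390 of a 3′ UTR of 1993 nt, whereas the 3′ UTRs of Socs4 (5182 nt) and Socs7 (5184 nt) were far longer than the median of 915 nt.

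The miR-222-3p complement was the most frequent in the family, with 1 copy in Cish, 2 in Socs2, 2 in Socs4 and 1 in Socs7. Those of Cish and Socs2, the STAT-induced members among them, and the longest match of Socs4, which ends in an A opposite base 1 of the miRNA, are shown for the comparison with miR-222-3p-EVs.
Cish: agggccgcagATGTAGCtcccttgtgt
Socs2, first: aggtgtgaagATGTAGCtaggtatttt
Socs2, second: ttaccccttgATGTAGCtgtgagtccc
Socs4: agaaaagagaATGTAGCAtcctagaggt
They lie at chr9:107301784-107301790 (plus strand), at chr10:95412475-95412481 and chr10:95411755-95411761 (minus strand) and at chr14:47291472-47291479 (plus strand). The single miR-183-5p complement was in Socs2, at chr10:95411732-95411738 (minus strand).
Socs2, miR-183-5p: tcccaacctaGTGCCATtgtttttatt
Socs3, Socs5 and Socs6 held none of the 3 complements in this UTR. Matches that lack the first base of a complement but end in an A opposite base 1 of the miRNA were not counted as complements. Such matches occurred for miR-183-5p in Socs4 and Socs6, and for miR-222-3p in Socs1. Matches that lack the first base and have no such A lay in Socs4, Socs5 and Socs7. A match describes letters only, and its absence says nothing of other UTRs or of pairing elsewhere.

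Libraries held 16294611 to 22974853 estimated counts, and a floor of 3 counts was 0.131 to 0.184 CPM (counts scaled to the library total), which covers counting error only. All 10 macrophage markers were expressed, at 1425 to 2074 TPM in sum, while 10 endothelial markers summed to 4.75 to 9.72 TPM. Of these 10, 2 averaged 1 TPM or more, Pecam1 at 3.26 TPM and Vwf at 2.21 TPM, and only Cldn5 was listed at 0 in every library. Libraries with the same number deviated from their group means together (correlation across genes 0.409 to 0.797 over 18 pairs). The 4 libraries numbered 2 stood apart from the rest. What a number stands for is not stated. The methods say in general that experiments were repeated, but the sources do not tie the 3 libraries of a group to separate cultures, and p values measure the spread between these libraries, which may be technical.

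The family fell into an upper group of 5 genes, a low gene and 2 genes near the floor. On the TPM scale, which is per length and can be compared between genes, Socs4 averaged 20.6 ± 4.67 (SD, n = 12 libraries) and Socs6, an adaptor-binding member, 19.6 ± 2.80. Socs3 followed at 12.8 ± 2.05, Socs5 at 12.6 ± 4.85 and Socs7 at 12.5 ± 2.19. Cish, a STAT5-induced member, averaged 4.54 ± 1.37, Socs2, an inhibitor of growth hormone signalling, 0.731 ± 0.444, and Socs1 0.156 ± 0.0714 TPM. Among tested genes 54.1% had a lower mean TPM than Socs4, and 28.6% a lower one than Cish.

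**Figure D1:**
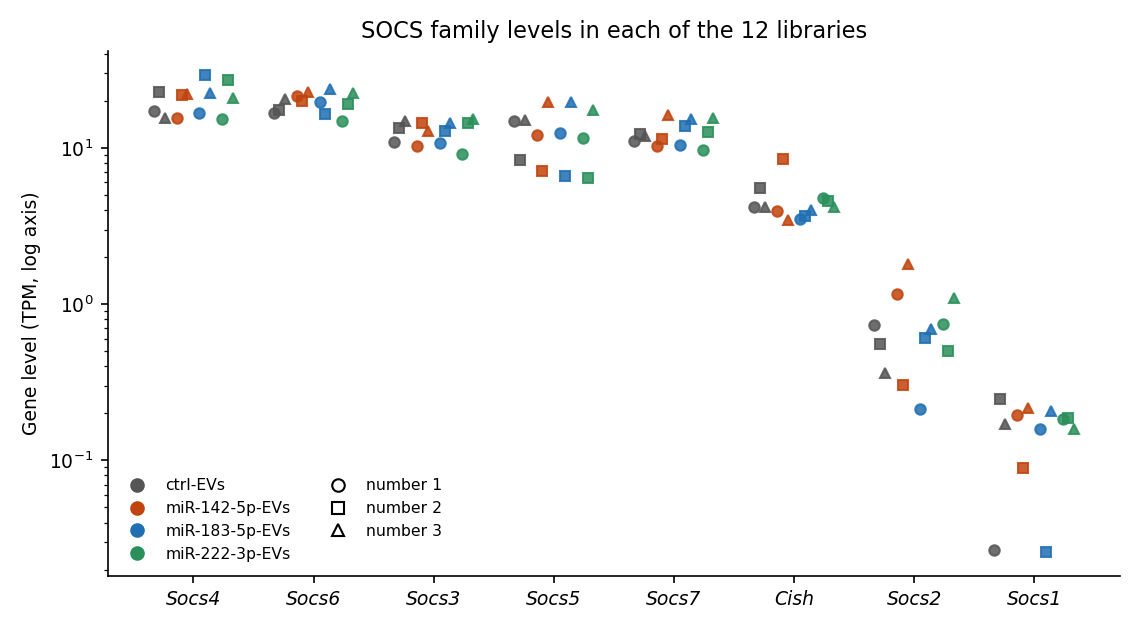
Level of each SOCS family gene (TPM, log axis) in the 12 libraries, with genes ordered by their mean. Colours stand for the 4 groups and symbols for the replicate numbers. Socs4 and Socs6 reach about the same level, Socs3, Socs5 and Socs7 form the next step, and Socs1 lies between 0.0260 and 0.247 TPM, below every other member in each library.

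Not every step of this order was larger than the spread. Socs4 was above Socs6 in 6 of 12 libraries, Socs3 above Socs5 in 4 and Socs5 above Socs7 in 8, so that no order held in all libraries. The order of Socs5 went with the replicate number, since it was above both Socs3 and Socs7 in the 8 libraries numbered 1 and 3 and below both in the 4 numbered 2. By contrast, Socs6 exceeded Socs3, Socs7 exceeded Cish, Cish exceeded Socs2 and Socs2 exceeded Socs1 in 12 of 12 libraries. Mean TPM dropped 2.76-fold from Socs7 to Cish, 6.20-fold from Cish to Socs2 and 4.70-fold from Socs2 to Socs1. The family summed to 66.1 to 100.5 TPM per library.

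Socs1 (chr16:10782240-10785536, minus strand) was close to undetected. The estimated counts in replicates 1, 2 and 3 were 1, 9 and 7 with ctrl-EVs and 8, 3 and 8 with miR-142-5p-EVs. The miR-183-5p-EV libraries had 7, 1 and 9 counts, and the miR-222-3p-EV libraries had 8, 7 and 6. The groups overlapped throughout, the ctrl-EV libraries alone spanned the whole range of 1 to 9, and 0 of 12 libraries reached the minimum of 10 counts. No 31-nt stretch of Socs1 transcripts occurs in another gene, so its reads were not shared. Only 1.70% of tested genes had a lower mean TPM.

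**Figure D2:**
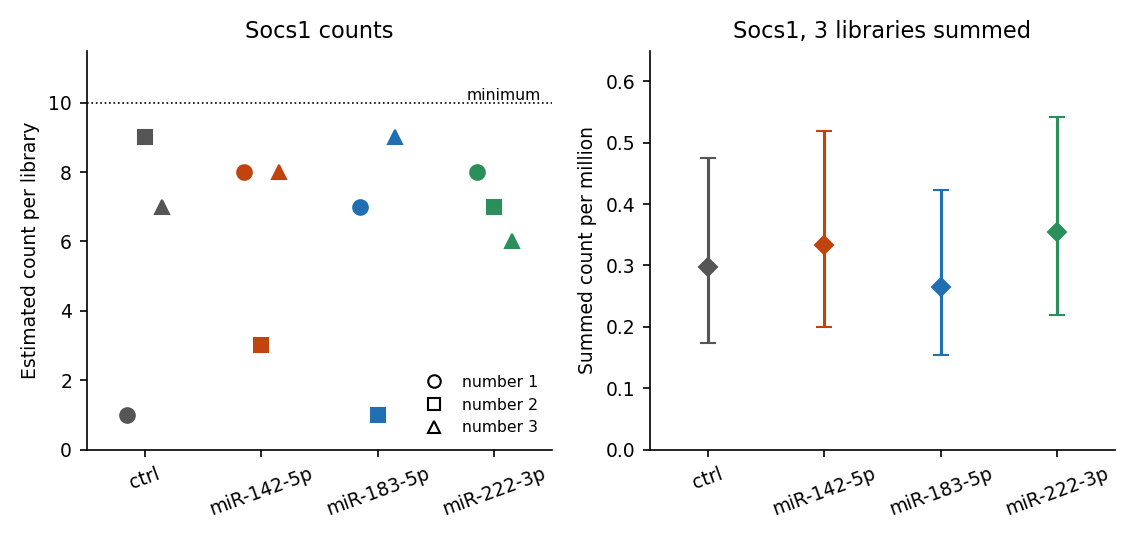
Left, estimated counts of Socs1 in each library, with the minimum of 10 counts used for the tests as a dotted line. Right, Socs1 counts summed over the 3 libraries of a group, in CPM (points) with exact 95% Poisson intervals (bars), which cover counting error only. The 4 intervals overlap, and miR-142-5p-EVs lie at 0.333 CPM against 0.297 CPM for ctrl-EVs.

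No fall of Socs1 mRNA was detectable at this depth. Summed over 3 libraries, Socs1 had 19 counts with miR-142-5p-EVs (0.333 CPM, exact Poisson interval 0.200 to 0.520) and 17 counts with ctrl-EVs (0.297 CPM, 0.173 to 0.476). The ratio was 1.12, with an exact conditional interval of 0.551 to 2.29 that covers counting error only. Across libraries, mean CPM was 0.324 ± 0.124 (SD, n = 3) and 0.306 ± 0.238 (SD, n = 3), which differed by less than the spread (two-sided exact permutation p = 0.90, where 0.10 is the smallest possible). The ratio was 0.890 (0.427 to 1.86, exact permutation p = 0.80) for miR-183-5p-EVs and 1.19 (0.599 to 2.41, exact permutation p = 0.80) for miR-222-3p-EVs. When genes of low count were kept in the DESeq2 fit, the log2 difference with miR-142-5p-EVs was 0.09 ± 0.86 (SE), with a 95% interval of −1.59 to 1.77. The data thus leave room for a fall or a rise of Socs1 of more than 2-fold.

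Outside Socs1, no member was called in any comparison of the groups. With DESeq2 at an adjusted p under 0.05, 0 of 7 tested members were called with miR-142-5p-EVs, against 0.00720% of all genes, and 0 with either of the other mimics, against 0% of all genes in each. With the replicate number as a block, all genes gave 0.0575%, 0.410% and 0.0647% in the 3 comparisons, and again 0 of 7 members were called. At an unadjusted p under 0.05 the count of members also stayed at 0 in these 6 tests, beside 0.525%, 0.993% and 0.727% of all genes without the block and 5.86%, 10.1% and 6.53% with it. edgeR's quasi-likelihood test and limma called 0 members. For all 9 miR-EV libraries against ctrl-EVs (background 0%, and 0.626% with the block), for miR-142-5p-EVs against the other mimic EVs (0.00720% and 0.0216%) and among the 4 groups (0.00720% and 0.0863%), 0 members were called as well. In none of the 3 comparisons did any member have 3 miR-EV libraries all above or all below the 3 ctrl-EV libraries, a separation that 2.70%, 3.20% and 2.69% of all genes showed. Median log2 differences of the tested members were 0.05, −0.06 and 0.01, beside 0.0093, 0.0089 and 0.013 over all genes.

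**Figure D3:**
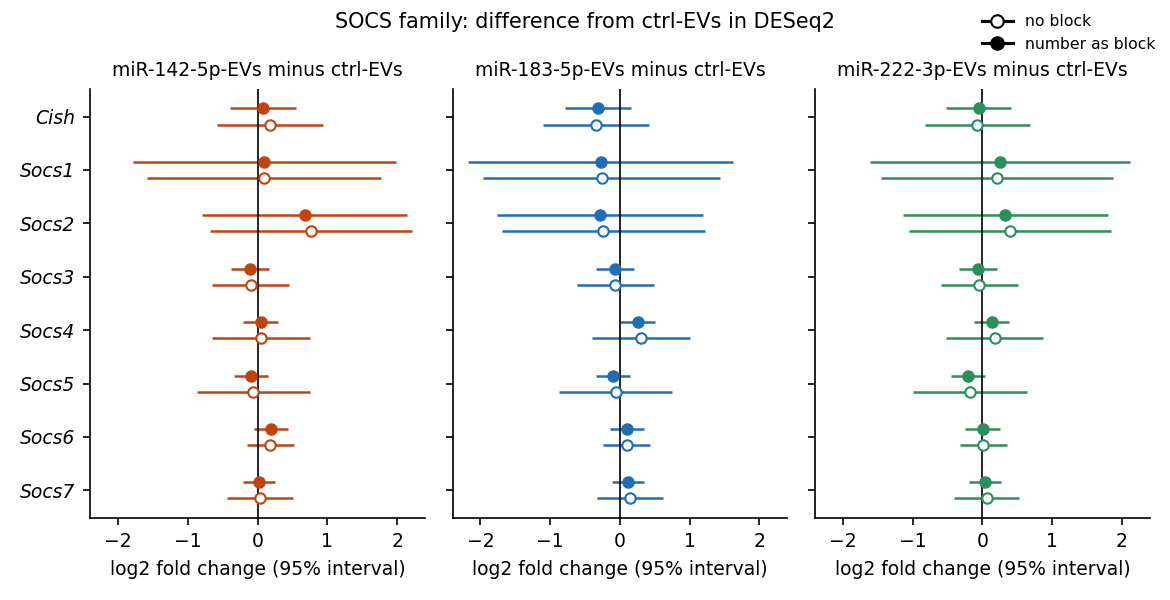
Difference of each member from ctrl-EVs on the log2 scale (points) with its 95% interval (bars) in DESeq2, with 1 panel for each mimic. Open points are fits without and filled points fits with the replicate number as a block, and Socs1 is from the fits that kept genes of low count. Every interval includes 0, and those of Socs1 and Socs2 are the widest.

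Socs4 and Socs7, the other members with a miR-142-5p complement, were well measured. Socs4, which acts on the EGF receptor, stood at 1688, 2405 and 1554 normalized counts in ctrl-EV replicates 1, 2 and 3. With miR-142-5p-EVs it stood at 1470.1, 2371 and 1991. The third library was higher and the first and second were lower than the control of the same number, and the groups overlapped. The log2 difference was 0.05 ± 0.36 (SE, DESeq2 adjusted p = 1.0), with a 95% interval of −0.65 to 0.75 that reaches down to 0.636-fold. With the replicate block the interval was −0.21 to 0.30, down to 0.865-fold.

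Socs7, a binding partner of adaptors such as Nck, had 1023, 1223 and 1129 normalized counts with ctrl-EVs. The miR-142-5p-EV libraries had 930.2, 1166 and 1361, a wider span that contains the control values. The first and second were below the control of the same number, and the third was above it. The log2 difference was 0.04 ± 0.24 (SE), with a 95% interval of −0.43 to 0.50 (down to 0.741-fold), or −0.21 to 0.25 (down to 0.866-fold) with the block. The intervals of both genes were narrower than that of Socs1 in either fit.

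For miR-183-5p-EVs, the member of lowest p was Cish without the block, where the difference was negative, and Socs4 with it, where the difference was positive. The 3 Socs4 libraries had 1608, 3374 and 1979 normalized counts, below the control of the same number in replicate 1 and above it in replicates 2 and 3. The log2 difference was 0.30 ± 0.36 (SE), or 0.25 ± 0.13 with the replicate block (DESeq2 adjusted p = 0.42). With the block and no length offset it was 0.28 ± 0.12, past an unadjusted p of 0.05 but not the adjusted one (DESeq2 adjusted p = 0.29). The other member to do so in that fit was Socs5 with miR-222-3p-EVs, at −0.26 ± 0.12 (DESeq2 adjusted p = 0.86). Socs7 had 945, 1493 and 1287 normalized counts, with a log2 difference of 0.14 ± 0.24 without the block.

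Cish (chr9:107296026-107302784, plus strand) was lower than the control of the same number in 3 of 3 miR-183-5p-EV libraries, which held 138, 173 and 146 normalized counts against 169, 239 and 172. The share of all genes with such agreement was not counted. In CPM, which has no length offset, replicate 1 went the other way, at 8.05 against 7.05 with ctrl-EVs. The groups overlapped in 1 library, and the difference of −0.34 ± 0.39 on the log2 scale (−0.32 ± 0.24 with the block) did not pass (DESeq2 adjusted p = 1.0 and 0.63). Cish transcripts share 3.87% of their 31-nt stretches with other genes, chiefly with Gm17040 on the opposite strand. In miR-222-3p-EVs, for which Cish holds a complement, it had 192, 208 and 152 normalized counts and a log2 difference of −0.07 ± 0.39 without the block.

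Socs2 (chr10:95385362-95417180, minus strand), which holds complements of both miR-183-5p and miR-222-3p, had only 4 to 17 estimated counts per library. Normalized counts were 10.7, 9.24 and 5.81 with ctrl-EVs and 16.9, 4.54 and 24.1 with miR-142-5p-EVs. The miR-183-5p-EV libraries had 2.76, 10.0 and 9.18, and the miR-222-3p-EV libraries 10.9, 8.42 and 14.2. The largest log2 difference of the family, 0.76 ± 0.74 with miR-142-5p-EVs, thus rested on a few counts, and the groups overlapped. With miR-183-5p-EVs it was −0.24 ± 0.74 and with miR-222-3p-EVs 0.39 ± 0.74, all without the replicate block. Without the length offset the value with miR-142-5p-EVs was 0.12, and 6.36% of its 31-nt stretches occur in other genes.

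Among the members without a complement, Socs3 (chr11:117966079-117970047, minus strand) had 349, 464 and 491 normalized counts with ctrl-EVs, and 325, 519.8 and 377 with miR-142-5p-EVs, a log2 difference of −0.10 ± 0.28. Socs5 (chr17:87107679-87137839, plus strand), a member that restrains IL-4 receptor signalling, had 813, 494 and 856 against 651, 435 and 987, a log2 difference of −0.06 ± 0.41. In both genes the libraries of a group, which carry different replicate numbers, differed more than the groups did. These fits have no block for the number.

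Socs6 had the narrowest intervals in the fit without the block, and Socs7 with it. Socs6 stood at 605, 686 and 763 normalized counts with ctrl-EVs and at 759.8, 814 and 760.0 with miR-142-5p-EVs, and these groups overlapped in 1 control library. The log2 difference of 0.18 ± 0.17 (0.19 ± 0.13 with the block) had an adjusted p of 1.0 (0.91 with the block) in DESeq2. The miR-183-5p-EV libraries, at 703, 704 and 786, were each above the control of the same number, with a log2 difference of 0.09 ± 0.17 without the block. The share of all genes with such agreement was not counted. In CPM only replicate 3 was above its control, at 43.4 against 41.0. Of the 31-nt stretches of Socs6 7.26% occur in other genes, chiefly Gm9449, so its counts carry that uncertainty.

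Most tested members differed between replicate numbers. Among the numbers 5 of 7 members were called (likelihood ratio test in DESeq2, group in the model), namely Socs3, Socs4, Socs5, Socs7 and Cish. The share of all genes called was 69.4%, so a count of 5 of 7 is what the background gives and is no result about the family. The called members went in both directions, and Socs2 and Socs6 did not pass.

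**Figure D4:**
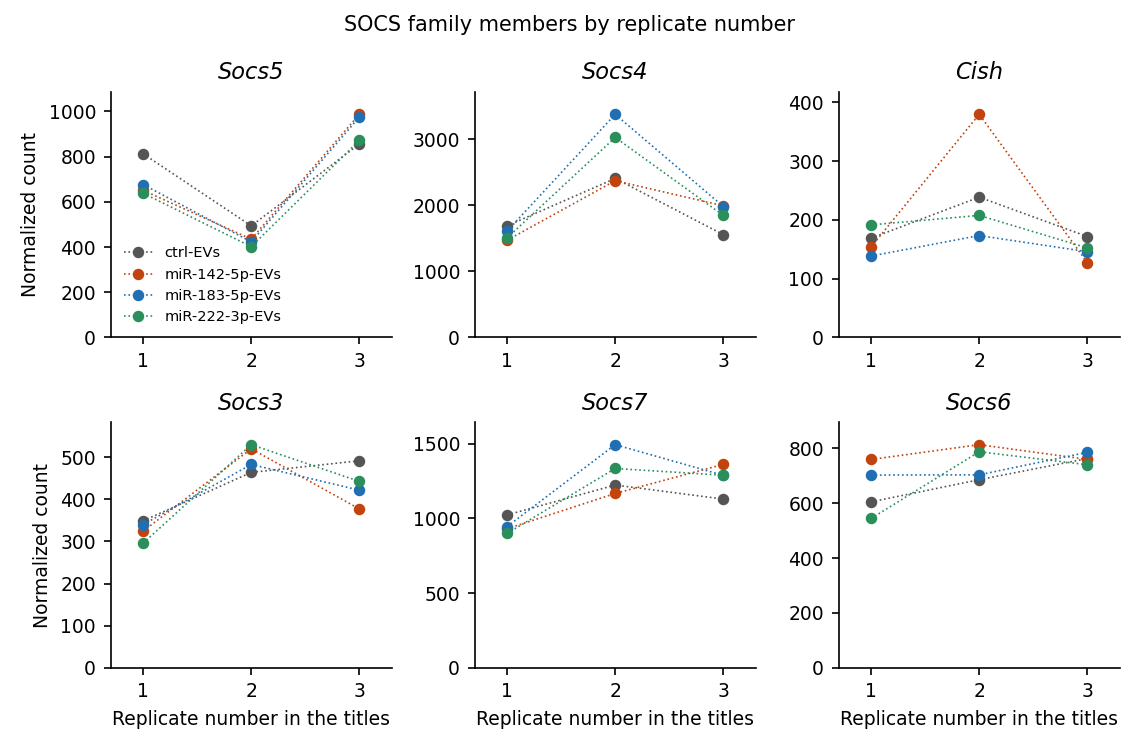
Normalized counts of 6 SOCS family members by the replicate number in the sample titles, with 1 colour for each group. Dotted lines link the libraries of a group and stand for no order in time. Socs5 is lowest and Socs4 highest at number 2 in all 4 groups, and for Cish replicate 2 of miR-142-5p-EVs lies apart at 379.6.

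Socs5 fell in the libraries numbered 2. Those 4 libraries had 402 to 494 normalized counts, below all 4 numbered 1 (638 to 813) and all 4 numbered 3 (856 to 987). Number 2 minus the mean of numbers 1 and 3 was −0.87 ± 0.10 (SE, log2, DESeq2 adjusted p = 2.2e-18), and 76.0% of genes had a difference of smaller size. Socs4 went the other way, with 2371 to 3374 normalized counts at number 2 against 1470.1 to 1688 at number 1 and 1554 to 1991 at number 3, a log2 difference of 0.71 ± 0.10. The 2 genes thus kept no fixed ratio across the libraries. The share of all genes called was 32.0% for higher and 32.1% for lower at number 2.

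Socs3 rose by 0.41 ± 0.11 on the log2 scale at number 2, with 464 to 529.7 normalized counts against 296 to 349 at number 1 and 377 to 491 at number 3. Its number 1 libraries were lower than all others. Cish rose by 0.64 ± 0.18, with 173 to 379.6 normalized counts at number 2, but without replicate 2 of miR-142-5p-EVs the difference was 0.35 and no longer passed (DESeq2 adjusted p = 0.055). Socs7 rose by 0.25 ± 0.09, and this call was lost without replicate 2 of miR-183-5p-EVs (0.18, adjusted p = 0.11) or of miR-222-3p-EVs (0.23, adjusted p = 0.065). Socs6 differed by 0.08 ± 0.10 and Socs2 by −0.35 ± 0.57, and neither passed.

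Between numbers 3 and 1, Socs3, Socs5 and Socs7 were higher at number 3, by 0.40 ± 0.12, 0.42 ± 0.11 and 0.41 ± 0.10 on the log2 scale, beside 10.5% of all genes called in this direction. Macrophage markers summed to 1425 to 1559 TPM at number 2, 1595 to 1741 at number 1 and 1911 to 2074 at number 3, and their part in these differences was not tested. Leaving out all 4 libraries numbered 2, 0 members were called in the comparisons with ctrl-EVs, with or without the block.

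The pathway around the family was measured through 156 other genes in 9 lists, of which 118 were tested. With each mimic and in all of them together, 0 were called in DESeq2, with or without the replicate block. Median log2 differences with miR-142-5p-EVs were 0.04 for 4 Janus kinases, 0.04 for 6 STAT factors and 0.03 for 23 cytokine receptors. They were −0.09 for 8 cytokine ligands, −0.05 for 23 STAT target genes and 0.0019 for 13 other inhibitors of JAK-STAT signalling, beside 0.0093 over all genes. The SOCS-box machinery was likewise not called, with medians of −0.07 for 8 ubiquitin ligase partners, −0.03 for 21 other SOCS box proteins and −0.02 for 13 further substrates and partners.

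**Figure D5:**
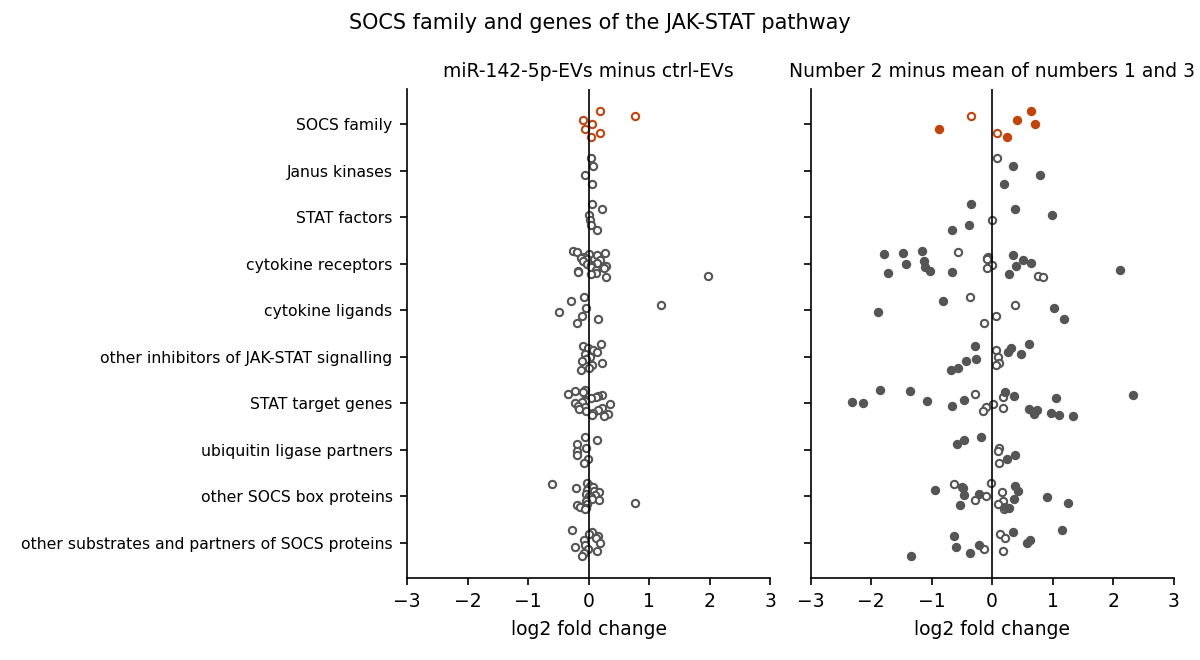
Log2 differences of the tested SOCS family members (orange) and of the tested genes of 9 pathway lists (grey), with 1 point for each gene. Left, miR-142-5p-EVs minus ctrl-EVs, where 0 of these genes were called. Right, number 2 minus the mean of numbers 1 and 3, where filled points passed an adjusted p of 0.05 in DESeq2.

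The Janus kinases and STAT factors of highest mean TPM were above all members, although other STAT factors were not, such as Stat5a at 12.1 TPM and Stat5b at 12.7 TPM. The receptor-bound kinases Jak1 and Tyk2 averaged 49.1 and 36.5 TPM and Jak2 28.7 TPM. Stat6, which carries the IL-4 signal, averaged 61.8 TPM, and Stat3, which carries those of IL-6 and IL-10, 48.1 TPM. The elongins that bind the SOCS box were abundant, Eloc at 264 TPM and Elob at 203 TPM. Ptpn6, a phosphatase that also restrains these receptors, averaged 273 TPM.

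Most tested genes of the pathway lists also differed between the replicate numbers. Among the numbers 4 of 4 Janus kinases, 5 of 6 STAT factors, 18 of 23 cytokine receptors, 6 of 8 cytokine ligands and 19 of 23 STAT target genes were called, beside 69.4% of all genes. The other lists gave 7 of 8 ubiquitin ligase partners, 13 of 21 other SOCS box proteins, 9 of 13 other inhibitors and 9 of 13 further substrates and partners. Most lists lay above the share of all genes, and the rest at or below it. The counts were not tested against that share, so they are no result about the pathway. At number 2, Stat3 was higher by 0.98 ± 0.08 on the log2 scale and Jak3 by 0.80 ± 0.09. Stat6 was lower there, by −0.67 ± 0.07, as were the IL-10 receptor chain Il10rb (−1.13 ± 0.08) and the IL-6 receptor Il6ra (−1.72 ± 0.10). The partner chains of these receptors went the other way, Il10ra by 0.51 ± 0.10 and Il6st by 0.28 ± 0.11. Bcl6, a repressor induced by STATs, was higher by 2.32 ± 0.11, and Fcgr1, an interferon-induced Fc receptor, lower by −2.32 ± 0.15. Of the 23 STAT target genes, 10 were called higher and 7 lower at number 2, beside 32.0% and 32.1% of all genes. These counts were not tested against those shares and are no result about STAT targets.

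Which genes ran with each member once the number was removed was described by Pearson's r over 12 libraries, after centring log2 values within each number and among 10856 genes averaging 50 or more normalized counts (10857 for Socs2). Nearest to Socs7 were Dennd1b (r = 0.99) and Slf2 (0.97), and to Socs4 Birc6 (0.98) and Chd1 (0.96). For Socs5 they were Cerk (0.97) and Osbpl2 (0.95), and for Socs3 Alkbh6 (0.91) and Ebi3 (0.90), the latter a cytokine subunit of IL-27. Cish was most like Gpr137 (0.98) and Zfp524 (0.95), Socs6 like Il12rb1 (0.85) and Epb41l1 (0.81), and Socs2 like Dtl (0.93) and Hnrnpul2 (0.88). These are the highest of many correlations over few libraries, which share depth and handling, and describe these libraries only. The 99th percentile of r over the genes compared ran from 0.60 for Socs6 to 0.88 for Socs4 and Socs7. Cish and Socs6 each had 1 library far from the others, and its weight in these values was not tested.

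Members differed in how many transcripts carried them. Socs4-201 held all of the Socs4 level, and Socs3-201 and Socs7-201 held medians of 93.3% and 92.3% of their genes' TPM. Socs5-201 held 78.9%. Socs6 was the most divided of the members above 1 TPM, with a median of 42.6% in Socs6-203, 14.6% in Socs6-201 and 12.5% in Socs6-207. Cish-201 held a median of 63.5%, with a range of 38.7% to 82.2%. Both Socs1 transcripts are nearly alike and the few counts were assigned to one or the other, so its split could not be read, and the same holds for the few counts of Socs2, spread over 14 listed transcripts.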

How the data were processed

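The authors mapped read pairs of stranded mRNA libraries with Salmon to Ensembl transcripts. Their deposited files give, per transcript, an estimated count (not normalized) and a TPM value. The submitters' notes name a human build, but identifiers were mouse, and 98.2% of 118783 transcripts matched GENCODE vM21. Estimated counts were summed to genes and rounded, with mean transcript length as an offset. A gene needed 10 or more counts in 3 or more libraries (13906 genes) and was tested with DESeq2 1.42.0 (R 4.3.3), the study's tool, without the replicate number, since its methods state no block. p values were Benjamini-Hochberg adjusted over all genes. Fits were checked on simulated counts, with large changes planted in well-counted genes only. That check covers neither genes as low as Socs1 and Socs2 nor small differences. Same-numbered libraries of different groups correlated at 0.409 to 0.797, all over the limit of 0.1 that was set, hence the block. Pairs with other numbers ran from −0.628 to 0.228, so that limit alone does not separate them, and centring on group means pulls these values down. Alternatives were edgeR 4.0.16, limma 3.58.1 on log2(TPM + 0.1), no filter, no length offset, only the groups compared, and each library left out. Members and lists were chosen with earlier results of these data known. All members are named, and of the lists at most the 3 highest in TPM and the 3 called genes of lowest p per list. Stat5a, Stat5b, Il10ra, Il6st and the genes most like a member are named besides. Coordinates and sequence of Socs6, and the values of 1 gene of the lists, are not reported here.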

Additional observations from a re-analysis of the deposited data

Results flagged for a closer look

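Of 32 checks for a library far from the others (8 members, in the 9 miR-EV libraries and in the 4 libraries of each number), 2 stood out, where chance gives about 1 in 20. Cish had 379.6 normalized counts in replicate 2 of miR-142-5p-EVs, against 208 in the next highest of the 9 miR-EV libraries. In CPM, which has no length offset, that library had 14.5 and replicate 2 of ctrl-EVs 13.4, and the short transcript Cish-205 (371 nt) took 34.9% of the Cish TPM there from 6.89 estimated counts. Socs6 had 545 normalized counts in replicate 1 of miR-222-3p-EVs, against 703 in the next lowest library. Its CPM there was 30.4, beside 32.7 in replicate 1 of miR-183-5p-EVs, and Socs6-203 held 54.9% of its TPM.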

How the results depend on the processing

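Member calls stayed at 0 in the 6 comparisons of groups under every alternative run, and among the numbers they were 4 to 6. Pathway calls also stayed at 0 against ctrl-EVs and among the 4 groups, where they were counted. Counts over all genes moved. With the replicate block they were 8 for miR-142-5p-EVs, 57 for those of miR-183-5p, 9 for those of miR-222-3p, 87 for all mimics, 3 for miR-142-5p-EVs against the other mimic EVs and 12 among the 4 groups. In the same order they were 20, 52, 26, 98, 27 and 13 when the block was used without the filter, and 4, 32, 6, 54, 2 and 4 when it was used without the offset. In the libraries numbered 1 and 3 only, an alternative added after seeing the data, as were the paired changes of filter or offset, they were 2, 5, 3, 6, 0 and 6, or 27, 14, 20, 83, 3 and 39 with the block. edgeR with or without the block, limma and, where it could be run, the fit of only the groups compared gave 0. With 1 library left out, the counts ranged from 0 to 1 with miR-183-5p-EVs and also with miR-142-5p-EVs, from 0 to 2 with all mimics and among the 4 groups, and from 0 to 4 for miR-142-5p-EVs against the other mimic EVs.

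Of the differences of members from ctrl-EVs, none of which was called, several changed sign. With 1 library left out, the log2 difference with miR-142-5p-EVs ranged from −0.46 to 0.45 for Cish, −0.31 to 0.045 for Socs3, −0.12 to 0.26 for Socs4, −0.41 to 0.18 for Socs5 and −0.10 to 0.17 for Socs7. With miR-183-5p-EVs it ranged from −0.49 to 0.16 for Socs2, −0.21 to 0.057 for Socs3, −0.068 to 0.52 for Socs4, −0.39 to 0.20 for Socs5 and −0.0097 to 0.31 for Socs7. With miR-222-3p-EVs the ranges were −0.17 to 0.11 for Cish, −0.24 to 0.16 for Socs3, −0.17 to 0.39 for Socs4, −0.47 to 0.067 for Socs5, −0.092 to 0.16 for Socs6 and −0.040 to 0.22 for Socs7. For all mimics they were −0.29 to 0.10 for Cish, −0.21 to 0.028 for Socs3 and −0.31 to 0.042 for Socs5. Against the other mimic EVs, miR-142-5p-EVs gave −0.25 to 0.66 for Cish, −0.25 to 0.10 for Socs3, −0.29 to 0.30 for Socs5 and −0.20 to 0.068 for Socs7. At number 2 the ranges were 0.35 to 0.76 for Cish, −0.80 to 0.14 for Socs2 and 0.18 to 0.31 for Socs7.

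Socs6 with miR-222-3p-EVs (0.010) turned to −0.0016 in edgeR, −0.0086 in edgeR with the block, −0.0011 with the block and no filter, −0.080 and −0.083 without the length offset (no block, block), and −0.090 and −0.094 in numbers 1 and 3. With all mimics it was −0.0059 and −0.0076 without the offset. Cish with miR-222-3p-EVs turned to 0.048 and 0.058 without the offset, and 0.018 and 0.0093 in numbers 1 and 3. There, Cish with miR-142-5p-EVs was −0.27 and −0.28, and against the other mimic EVs −0.15 and −0.16, while Socs7 was 0.050 and 0.046. Socs2 without the offset was 0.015 with miR-183-5p-EVs and −0.0037 for miR-142-5p-EVs against the other mimic EVs. The cause of these changes was not tested. Depth limited Socs1 (1 to 9 counts per library) and Socs2 (4 to 17). The block changed no call of a member.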
